A study of Homo sapiens with 6 samples.

Results

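TGFBR3, TGFBR1 and CDKN2B are 2 receptors and 1 target gene of transforming growth factor beta (TGF-beta). TGF-beta dimers are bound by the type II receptor TGFBR2, which recruits and activates the type I receptor TGFBR1, a serine/threonine kinase that phosphorylates SMAD transcription factors. TGFBR3, or betaglycan, is a membrane proteoglycan without a kinase of its own. It presents ligands, TGFB2 above all, to the signalling receptors, and its shed ectodomain can bind ligand away from the cell. CDKN2B encodes an inhibitor of the cyclin D kinases CDK4 and CDK6 and is a classical target of TGF-beta in epithelial cells. In gut fibroblasts the TGF-beta pathway is known for its part in matrix production and contractility.

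The genes were chosen by symbol: every probe set named TGFBR1, TGFBR3 or CDKN2B in the authors' deposited table, which lists probe sets at p at or under 0.05. This gave 4 probe sets of 3 genes, 2 for TGFBR3 and 1 each for TGFBR1 and CDKN2B, out of 2152 named probe sets of 1646 genes and 54613 probe sets on the arrays. Because a name required a small p in the comparison of SHH with untreated cells, the differences of these 4 probe sets are a description and support nothing by themselves. The one nearest to that limit was CDKN2B, at p = 0.0145 by the authors' deposited table and its Cyber-T test. Probe sets beyond the limit are unnamed here, so none of them can be given as lying just outside, and other probe sets of the 3 genes may be on the arrays without a change.

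Cells of CCD-18Co, an established line of colon fibroblasts described in the design text as primary myofibroblasts, were grown in medium containing bovine serum albumin at 0.1%. In 3 biological replicates the secreted morphogen sonic hedgehog (SHH) was added at 1 ug/ml for 72 h. The 3 untreated replicates have the treatment label none, the authors' readme calls that group vehicle, and no culture time is recorded for them. RNA was measured on 6 single-colour Affymetrix arrays, 1 per replicate, and no batch is recorded.

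The median signal of an array was between 94.4 and 111, and precision is limited by the small number of arrays. PTCH1, the hedgehog receptor and a standard target of the pathway, had a signal of 8635 ± 414 with SHH and 1368 ± 77.4 untreated (SD, n = 3 each). Of 10 fibroblast markers, COL3A1, DCN, PDGFRB and FAP had a name. Summed over these markers, the signal was 4186 to 4810 with SHH and 6213 to 7024 untreated, most of it from PDGFRB. The lowest signal among them was 160, against array medians of 94.4 to 111, and detection was not tested. None of 7 endothelial markers had a name, and the epithelial marker KRT18 and the monocyte marker CD14 were the 1 named gene of their lists, with signals of 3991 to 4507 and 250 to 281 with SHH, against 5273 to 5883 and 102 to 207 untreated. The neuronal marker UCHL1 read 6168 to 6527 with SHH and 3865 to 4167 untreated. Of 8 smooth muscle and pericyte markers 4 had a name, and they lay on both sides of 0, with groups that did not overlap. Such a separation was found in 95.3% of all named genes by their brightest probe set, since a name required a small p. The smooth muscle myosin MYH11 lay at 0.94 on the log2 scale, and calponin (CNN1) at -0.29, RGS5 at -0.66 and KCNJ8 at -0.88. Their summed signal, most of it from CNN1, was 6679.8 to 7719 with SHH and 7400.3 to 8629.6 untreated. None of the 11 named markers passed limma's adjusted threshold, and MYH11, UCHL1, KRT18, PDGFRB and FAP did with an intensity trend in limma's prior, which gives bright probe sets a smaller spread. The named fibroblast markers were lower with SHH, and so were KRT18, CNN1, RGS5 and KCNJ8, as TGFBR1 was. MYH11, UCHL1 and CD14 were higher, as TGFBR3 and CDKN2B were. The part of these markers in the values below was not tested. In bulk cultures fewer cells of a type and less RNA per cell cannot be told apart.

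The promoter windows of the 3 genes are shown because the cultures received a hedgehog ligand and the signals of the 3 genes differed in direction. Each window runs from 250 bases before to 50 bases after the gene's start, is printed 5′ to 3′ on the gene's strand and comes from RefSeq (GRCh38.p14). All 3 genes matched by symbol. For TGFBR1 the first of 8 listed starts is given, and the others have 1 start each. Capitals mark the GC box GGGCGG or its reverse complement CCGCCC, the letters bound by factors of the SP1 family. The windows are chr1:91886102-91886401 (minus strand) for TGFBR3, chr9:99104863-99105162 (plus strand) for TGFBR1 and chr9:22009256-22009555 (minus strand) for CDKN2B.
TGFBR3: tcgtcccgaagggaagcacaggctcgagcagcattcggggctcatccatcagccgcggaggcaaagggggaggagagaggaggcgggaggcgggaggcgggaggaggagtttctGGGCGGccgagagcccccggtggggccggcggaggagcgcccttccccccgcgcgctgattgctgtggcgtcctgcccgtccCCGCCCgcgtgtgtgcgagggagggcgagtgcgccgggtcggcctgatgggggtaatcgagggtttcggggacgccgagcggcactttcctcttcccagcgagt
TGFBR1: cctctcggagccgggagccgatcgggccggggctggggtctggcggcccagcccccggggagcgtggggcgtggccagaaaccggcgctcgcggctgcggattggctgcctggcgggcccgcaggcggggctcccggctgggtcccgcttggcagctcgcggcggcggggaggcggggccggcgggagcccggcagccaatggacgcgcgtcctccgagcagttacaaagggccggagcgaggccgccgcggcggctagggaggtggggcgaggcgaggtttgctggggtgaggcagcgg
CDKN2B: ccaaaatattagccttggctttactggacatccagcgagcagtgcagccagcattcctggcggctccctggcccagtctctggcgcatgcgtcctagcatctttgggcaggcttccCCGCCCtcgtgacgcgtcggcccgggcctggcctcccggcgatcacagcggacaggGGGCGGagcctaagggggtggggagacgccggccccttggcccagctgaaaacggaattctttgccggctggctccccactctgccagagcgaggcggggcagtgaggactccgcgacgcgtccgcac

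The TGFBR3 and CDKN2B windows each held 2 GC boxes and the TGFBR1 window none. Over the first listed window of all 27305 genes, 44.6% held at least 1 GC box. The G and C content was 71.7% for TGFBR3, 78.7% for TGFBR1 and 67.3% for CDKN2B, against a median of 58.3% over all windows. The GLI-binding letters GACCACCCA, read on both strands, were in none of the 3 windows and in 0.249% of all windows. The closest 9 letters differed from them at 2 positions in TGFBR3 and at 3 in TGFBR1 and CDKN2B, and 57.5% of all windows held a stretch with 2 or fewer differences. The SMAD-binding letters CAGACA and the TATA box TATAAA, also read on both strands, were likewise in none of the 3, and in 16.8% and 12% of all windows. None of these motifs contains another, a match is a description of the sequence only, and a missing one says only that the letters are not in this window.

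TGFBR3 signal was higher with SHH in both of its probe sets. The brighter one, 226625_at, read 4701, 4923 and 4343 in the SHH replicates, against 1481, 1426 and 1313 in the untreated replicates. All 3 SHH arrays lay above all 3 untreated arrays, and the lowest SHH value exceeded the highest untreated value by 2862. The means were 4656 ± 293 with SHH and 1406 ± 85.9 untreated (SD, n = 3 each), a 3.28-fold difference or 1.72 ± 0.11 on the log2 scale. The ± of log2 differences is the moderated SE from limma throughout, to which the spread of all probe sets contributes.

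The second TGFBR3 probe set, 204731_at, read 1853, 1859 and 1981 with SHH, against 775, 614 and 514 untreated. Here too the groups did not overlap, and the coefficient of variation among replicates was 3.81% with SHH and 20.7% untreated. The means were 1898 ± 72.3 with SHH and 634 ± 132 untreated (SD, n = 3 each), which is 2.98-fold or 1.58 ± 0.17 on the log2 scale. The array annotation gives both probe sets as TGFBR3. The symbol the authors chose carries a mark for a position 3′ of the gene on 226625_at and no mark on 204731_at, so that the dimmer probe set is the one both columns assign to TGFBR3 without a mark.

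The pair of TGFBR3 probe sets can be compared within each array. Ratios are of the signals with 16 added to each, the scale of the fit, so that some dependence on the scaling of an array remains. The log2 ratio of 226625_at over 204731_at was 1.335, 1.397 and 1.126 with SHH, against 0.921, 1.193 and 1.326 untreated. The groups overlapped, and their means differed by 0.139, which is less than the SD among replicates (0.142 with SHH and 0.207 untreated).

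TGFBR1, the signalling type I receptor, was lower with SHH. Its probe set 224793_s_at read 9813, 9935 and 9065 in the SHH replicates, against 12631, 13073 and 14548 in the untreated replicates. The groups did not overlap, and the gap between the highest SHH and the lowest untreated value was 2696. The means were 9604 ± 471 with SHH and 13417 ± 1004 untreated (SD, n = 3 each), which is 0.717-fold or -0.48 ± 0.11 on the log2 scale. This is a bright probe set, and the median difference over the 925 probe sets at a mean log2 signal of at least 13 was 0.08. The largest signal on any array lay between 30242 and 35610, above every TGFBR1 value. In Affymetrix naming the suffix _s_at marks a probe set that can match more than 1 transcript, so related transcripts could contribute to this signal.

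CDKN2B, the cyclin D kinase inhibitor, was slightly higher with SHH. Its probe set 236313_at read 2482, 2424 and 2552 with SHH, against 1959, 1954 and 1943 untreated. The means were 2486 ± 63.8 with SHH and 1952 ± 8.09 untreated (SD, n = 3 each), so that the untreated replicates lay closer together than the SHH replicates. The difference was 1.27-fold or 0.35 ± 0.10 on the log2 scale, and the groups did not overlap. The RefSeq annotation places the antisense gene CDKN2B-AS1 over CDKN2B, and the sources used here do not give the strand or position of the probes.

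**Figure D1:**
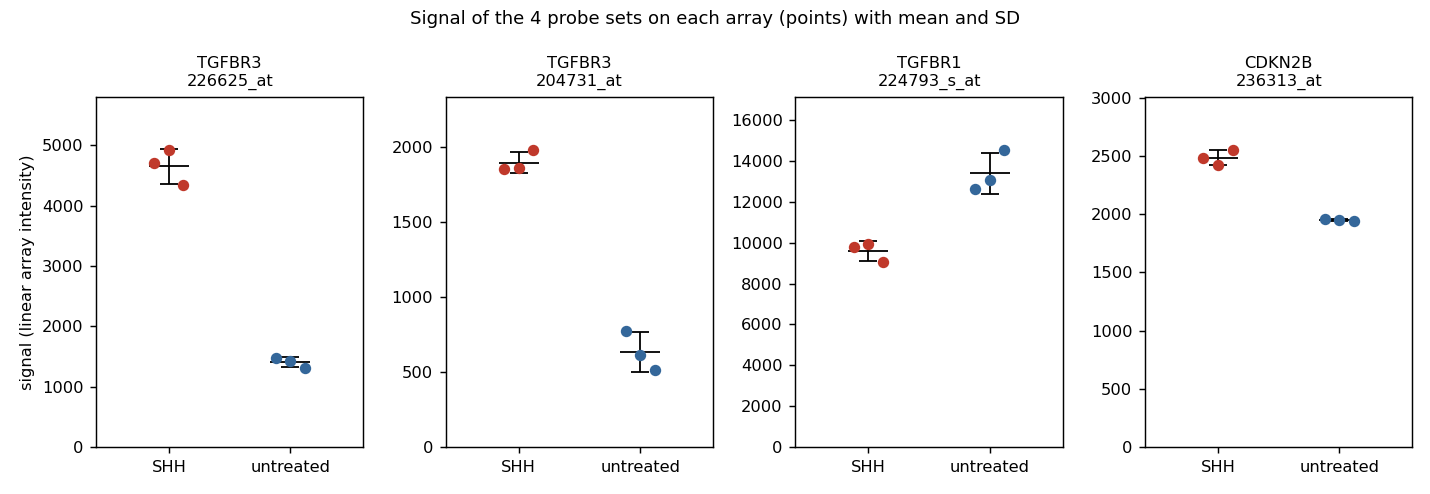
Signal (linear array intensity, axis from 0) of the 4 probe sets of TGFBR3, TGFBR1 and CDKN2B in SHH-treated cells (red) and untreated cells (blue), each point 1 array, with the mean and SD of each group in black. In both TGFBR3 panels the SHH points lie above the untreated points (3.28-fold and 2.98-fold), while TGFBR1 lies lower with SHH and CDKN2B slightly higher.

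By the fit across the whole array, limma called 67 of 54613 probe sets changed at an adjusted p under 0.05, or 0.123% (0.0824% higher and 0.0403% lower with SHH). Of the 4 probe sets of these genes, 1 was called, 226625_at of TGFBR3. The other TGFBR3 probe set, 204731_at, missed the threshold (limma adjusted p = 0.06085). SHH and untreated arrays were fully apart in 17.3% of all probe sets (6.97% higher and 10.3% lower with SHH), in 95.3% of the named genes by their brightest probe set, and in 4 of these 4. Nothing is read from either count, since the naming used this comparison, for which the authors' deposited table kept 4.41% of the probe sets. With the intensity trend in limma's prior, 1.86% of all probe sets and 4 of the 4 were called. With a pseudocount of 1, or with any 1 of the 6 arrays left out, none of the 4 was called and limma called 0 of all probe sets, with 5009 and 4411 to 5180 at an unadjusted p under 0.05. In the authors' deposited table the t statistic, with its sign turned to SHH minus untreated, was 17.3 for 226625_at, 12 for 204731_at, -5.56 for TGFBR1 and 4.13 for CDKN2B. By size of that statistic they stood at ranks 6, 33, 389 and 840 of 54613. The q-values in the authors' deposited table were 0.392, 0.417, 0.710 and 0.942.

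The balance of co-receptor and signalling receptor was followed as the same kind of ratio within each array. The log2 ratio of TGFBR3 (226625_at) over TGFBR1 was -1.06, -1.01 and -1.06 in the SHH replicates, against -3.08, -3.18 and -3.45 in the untreated replicates. The SHH replicates lay within a narrow band (SD 0.028) and above all untreated ones (SD 0.194), and the shift was 2.196. With the other TGFBR3 probe set the ratio was -2.395, -2.408 and -2.185 with SHH, against -3.999, -4.376 and -4.781 untreated. The shift was 2.056, and the SD was 0.125 with SHH and 0.391 untreated. That the groups lay apart was fixed in advance, since TGFBR3 was higher and TGFBR1 lower with SHH, each without overlap. A ratio between different probe sets has no meaning as an amount of one RNA over another, and only its shift between the groups can be read.

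The ratio of CDKN2B over TGFBR1 shifted by 0.83, with values from -2.03 to -1.82 with SHH, against -2.89 to -2.68 untreated. TGFBR3 (226625_at) over CDKN2B shifted by 1.37. The groups were apart in both ratios. For CDKN2B over TGFBR1 this was fixed in advance, since these genes differed in opposite directions without overlap. The differences of the 3 genes were thus unequal on the same arrays, with TGFBR3 uppermost, CDKN2B between and TGFBR1 lowest, as a description of the values that also chose them.

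**Figure D2:**
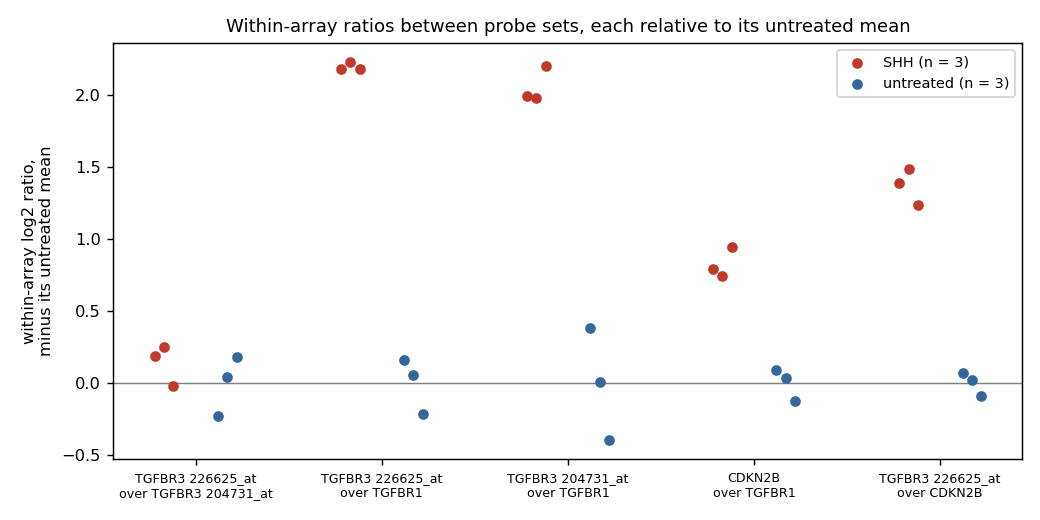
Log2 ratios of pairs of probe sets (signal + 16) within each array, each shown relative to the mean of the untreated arrays (vertical axis), with SHH in red and untreated in blue, 1 point per array. The ratio of the pair of TGFBR3 probe sets overlaps between the groups, while TGFBR3 over TGFBR1 lies 2.196 and 2.056 higher with SHH and CDKN2B over TGFBR1 lies 0.83 higher.

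The other genes of the pathway were taken from 6 lists by role. Of their 134 genes, 39 had a name, 15 higher and 24 lower with SHH, and 3 passed limma's threshold by their brightest named probe set: TGFBR3 rose, and ASPN and TNC fell. With any 1 array left out none of the 3 passed, as no probe set did. TGFBR3 passed by 226625_at, which carries the authors' 3′ mark, and not by 204731_at (limma adjusted p = 0.06085). Over all 1646 named genes 2.49% passed and 49.9% were higher. The median log2 difference was -0.38 over the 39, -0.24 over all named genes and -0.05 over all probe sets. Since a name depended on the p of this comparison, unchanged members are missing and the counts are not those of whole lists.

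Of 11 ligands, 2 had a name, both lower, and neither passed. TGFB2, the ligand that depends most on TGFBR3 for receptor binding, read 546, 692 and 545 with SHH, against 785, 858 and 789 untreated. The groups did not overlap, and the log2 difference was -0.45 ± 0.14 (limma adjusted p = 0.386). GDF11, a ligand of the activin branch, lay at -0.85 ± 0.21 (limma adjusted p = 0.281).

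Of 18 receptors and co-receptors, 6 had a name, and TGFBR3 was the one of these 6 that was higher. Besides TGFBR1, BMPR2, the type II receptor for bone morphogenetic proteins, lay at -0.38 ± 0.12, with its 3 named probe sets from -0.60 to -0.38. CD109, a cell surface protein that binds TGF-beta and holds back its signalling, also lay at -0.38. The neuropilins, co-receptors for semaphorins and VEGF that also bind TGF-beta, lay at -0.88 ± 0.12 for NRP1 and -0.38 ± 0.11 for NRP2. NRP1 read 240, 226 and 216 with SHH, against 424, 480 and 398 untreated. It missed the threshold by this brighter probe set (limma adjusted p = 0.0852), while its other named probe set lay at -1.46 and passed. TGFBR2 and endoglin, listed too, had no name here.

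Of 25 genes of latency, activation and extracellular inhibition, 11 had a name, 4 higher and 7 lower. Asporin (ASPN), a small leucine-rich proteoglycan known to bind TGF-beta, read 1339, 1328 and 1334 with SHH, against 3038, 3448 and 2989 untreated. It fell by 1.23 on the log2 scale, and 2 of its 2 named probe sets passed (limma adjusted p = 0.0468 for the brighter). The related proteoglycans decorin (DCN) and biglycan (BGN) lay at -0.93 ± 0.25 and -0.38 ± 0.16 and did not pass, DCN by a dim probe set of 240 ± 74.9 with SHH and 460 ± 64.3 untreated (SD, n = 3 each). Follistatin (FST), an antagonist of activin, lay at 0.69 ± 0.12 with all 3 of its named probe sets higher (limma adjusted p = 0.139).

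The latent TGF-beta binding proteins lay on opposite sides of 0, LTBP4 at 0.43 ± 0.13 and LTBP1 at -0.30 ± 0.14. Fibrillin 1 (FBN1), the microfibril protein that anchors latent complexes, lay at 0.31 and thrombospondin 1 (THBS1), an activator of latent TGF-beta, at -0.37. ITGB3, an integrin chain, lay at 0.47. The BMP antagonist CHRDL1 lay at -0.57. The integrin chain ITGB1 is represented by a dim probe set whose SHH arrays read 35.1, 21.9 and 184, overlapping the untreated range of 154 to 255, so that it is counted as lower only by its mean. SHH and untreated arrays also overlapped for FBN1 and BGN. None of these genes passed.

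Of 30 SMADs and receptor regulators, 5 had a name. With SHH 4 of them were higher and 1 was lower, with none past the threshold. SMURF2, a ubiquitin ligase that targets the activated type I receptor for degradation, read 14019, 14005 and 14923 with SHH, against 10286, 12293 and 11462 untreated. Its log2 difference was 0.34 ± 0.12 (limma adjusted p = 0.442), and each of its 4 named probe sets was higher, from 0.24 to 0.45. FKBP1A, an immunophilin that binds the type I receptor and keeps it inactive, lay at 0.50 ± 0.22, with 1 SHH array at 2827 and the other two at 1736 and 1750, against 1355 to 1491 untreated. The adaptor TAB2 lay at 0.31 and the repressor ZEB1 at 0.44. SMAD1, a receptor SMAD of the bone morphogenetic protein branch, lay at -0.51 ± 0.10, with both of its named probe sets lower (limma adjusted p = 0.196).

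Of 32 TGF-beta targets, 13 had a name, 5 higher and 8 lower. Tenascin-C (TNC), a matrix glycoprotein, read 453, 509 and 649 with SHH, against 2514, 2194 and 2277 untreated, and fell by 2.10 on the log2 scale (limma adjusted p = 0.0423). Of its 2 named probe sets 1 passed, and the other lay at -1.96. Periostin (POSTN) lay at -0.98 ± 0.14, the collagen COL3A1 at -0.66 ± 0.17 by a dim probe set, the protease inhibitor TIMP3 at -0.445 and the cytokine IL11 at -0.75, none of them past the threshold.

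The inhibitors of differentiation, targets of SMADs, lay on both sides of 0. ID1 lay at -0.87 ± 0.12 and ID3 at -0.28 ± 0.11, while ID2 lay at 0.57 ± 0.13. With CDKN2B, the targets on the higher side were VEGFA at 0.98 ± 0.11, TGM2, a transglutaminase, at 0.48 ± 0.10 and MYC at 0.38 ± 0.11. MYC is a repressor of CDKN2B that TGF-beta lowers in epithelial cells. The differences of these 2 genes were 0.38 and 0.35, both on the higher side. For VEGFA the brightest probe set had a limma adjusted p of 0.0609, while 2 of the 4 named ones passed.

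Around CDKN2B itself, 3 of 20 CDK inhibitors and their G1 targets had a name, and none passed. CDK6, a kinase that the CDKN2B product inhibits, lay at 0.35 ± 0.12 by its brightest probe set, and each of the 5 that carry its name was higher, up to 0.76. The cyclin CCND2 lay at -0.38 ± 0.12 (limma adjusted p = 0.396). CDKN2A, the neighbour of CDKN2B on the chromosome, and CDK4 had no name.

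**Figure D3:**
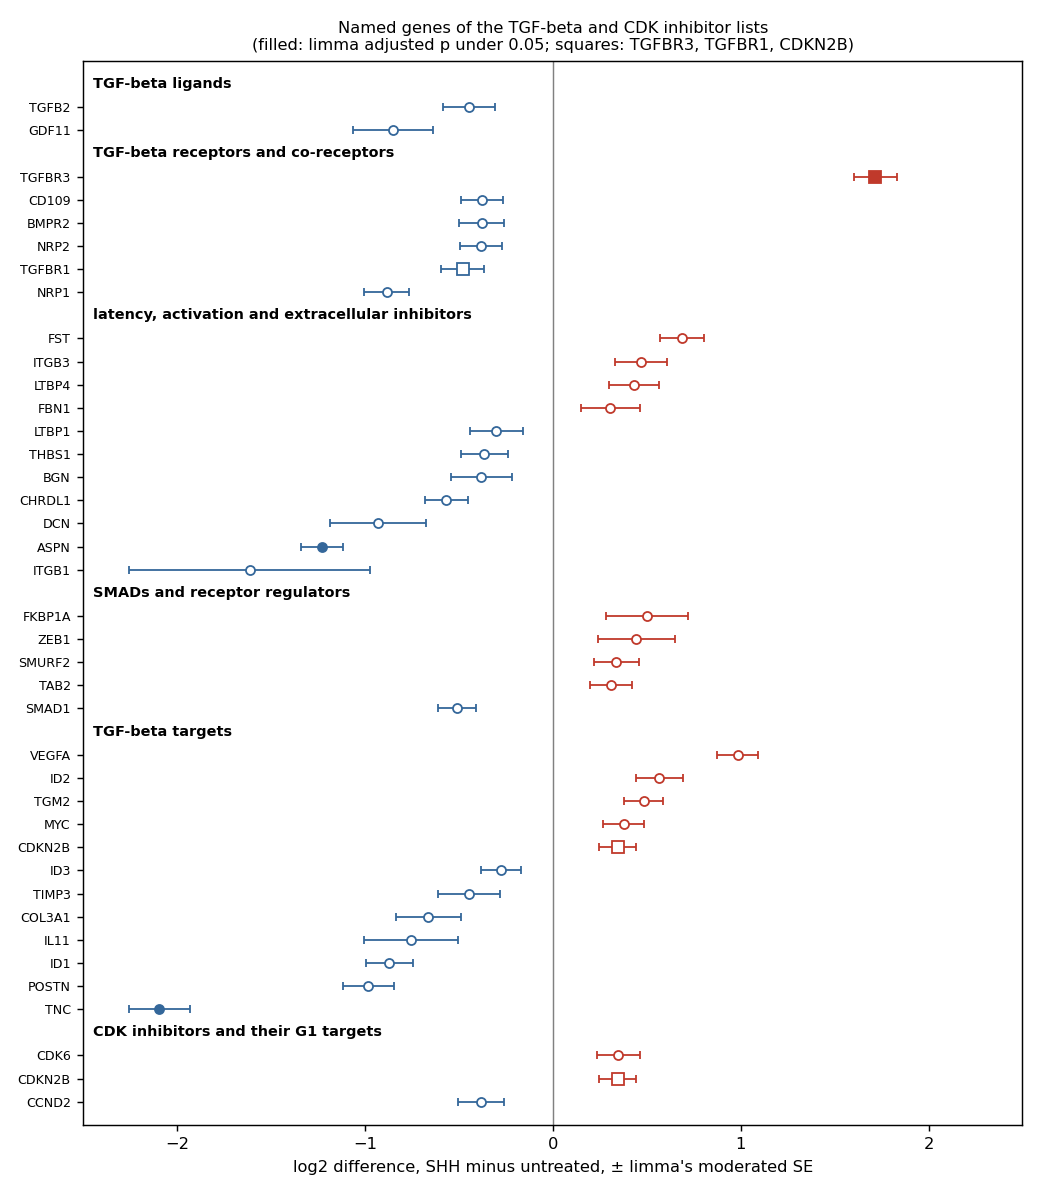
Log2 difference, SHH minus untreated, with limma's moderated SE (horizontal axis), of the named genes of the 6 lists that are reported, grouped by role, with red for higher and blue for lower with SHH, filled symbols for limma adjusted p under 0.05 and squares for TGFBR3, TGFBR1 and CDKN2B. Each gene is shown by its brightest named probe set. TGFBR3 lies at 1.72, to the right of every other gene shown, and the other 5 receptors and co-receptors lie between -0.88 and -0.38.

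The genes whose pattern was most like that of each gene were found by the Euclidean distance over the 6 arrays between log2 signals taken relative to the untreated mean, among 1505 other named genes brighter than the median probe set. Nearest to TGFBR3 were F2R, the thrombin receptor (distance 0.251), NRTN, a neurotrophic factor (0.315), SLC12A8, a solute carrier (0.337), and LACTB, a mitochondrial protein (0.369). F2R read 6277, 7135 and 7205 with SHH, against 2071, 2157 and 1842 untreated, and its log2 difference was 1.76 ± 0.12. The 4 genes thus lay within 1.65 to 1.76 on the log2 scale.

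Nearest to TGFBR1 were PPP1R3C, a glycogen-targeting subunit of protein phosphatase (distance 0.073), ADGRA3, an adhesion receptor (0.075), GALT, an enzyme of galactose metabolism (0.082), and CSRP2, a LIM domain protein (0.087). PPP1R3C read 7435, 7400 and 6876 with SHH, against 9367, 10031 and 10512 untreated. The log2 differences of the 4 were from -0.50 to -0.46. Nearest to CDKN2B were a gene listed as MGC4677 (0.049), ARL3, a small GTPase of the cilium (0.056), a gene listed as FLJ22490 (0.069) and IER5, an immediate early response gene (0.076), with log2 differences from 0.34 to 0.37. With 2 groups of 3 arrays such a likeness reflects mostly the difference between the groups, and many genes share it.

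The differences of the 4 probe sets were recomputed in 12 alternative settings. The replicate block and the restriction to brighter probe sets cannot move them, and leaving out 1 array cannot turn their sign, since the groups do not overlap. Over all 12, TGFBR3 lay between 1.67 and 1.80 by 226625_at and between 1.44 and 1.73 by 204731_at, TGFBR1 between -0.55 and -0.40 and CDKN2B between 0.33 and 0.43. The TGFBR3 values that differed most were those of 204731_at without untreated replicate 1 and without untreated replicate 3, its highest and lowest untreated arrays.

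**Figure D4:**
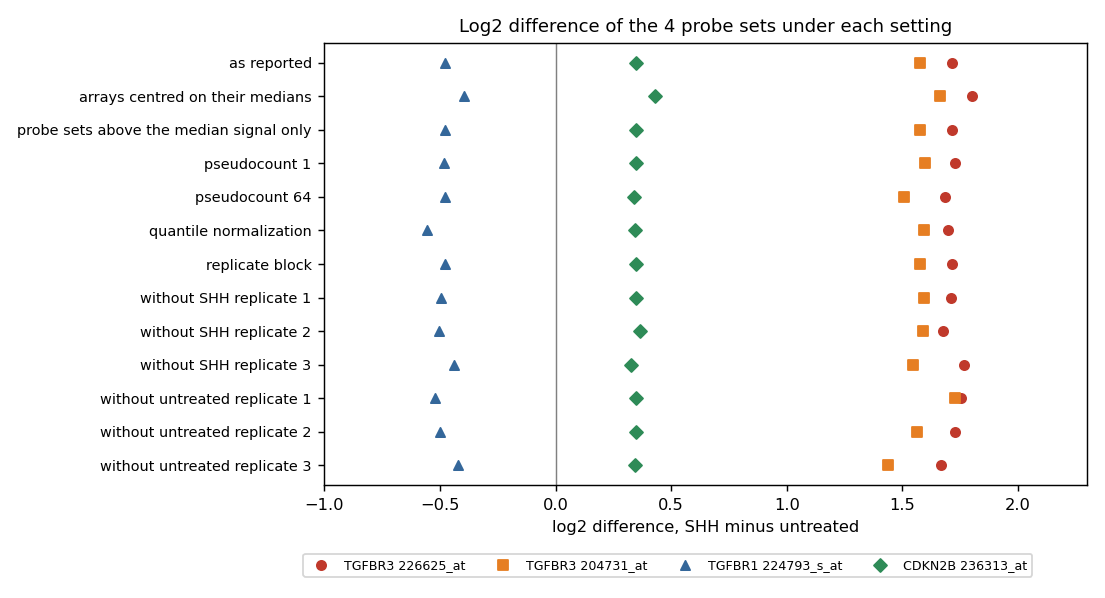
Log2 difference, SHH minus untreated (horizontal axis), of the 4 probe sets as reported and under each of 12 alternative settings (rows), 1 symbol per probe set. TGFBR3 lies between 1.44 and 1.80, CDKN2B between 0.33 and 0.43 and TGFBR1 between -0.55 and -0.40, and the sign could not turn in the rows that leave out 1 array.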

How the data were processed

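Labelled cRNA of 6 cultures was hybridised to Affymetrix arrays (per the labels' protocols, with biotin as the label). The authors' deposited value table holds 1 linear intensity per probe set and array. Trimmed means (2% per end) lie between 498.1 and 498.2, as if arrays had been scaled to a common level. The sources used here do not state image analysis or probe summary. The authors' Cyber-T test, per the deposited readme, supplies a score (its t statistic), a p-value with its q-value, and a log2 fold change coded untreated minus SHH. The deposited log2 values match means of the value table's log2 intensity within 4.97e-08.

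Names were taken only from the table the authors deposited at p at or under 0.05, where 2152 of 2411 probe sets had 1 symbol, updated through RefSeq synonyms. The brightest named probe set stands for a gene. Limma 3.58.1 (R 4.3.3) compared SHH with untreated arrays on log2(intensity + 16), 2-sided, with Benjamini-Hochberg adjustment over 54613 probe sets and a threshold of 0.05. Folds on that scale understate dim probe sets. No probe set was filtered out. The fit was also tested on simulated data with independent noise, which does not bear on how stable the calls here are. Other steps used Python 3.11.15. The members and lists were chosen with earlier results of these data known. The text names every member probe set, the named genes of the 6 lists (CDKN2B stands in 2 of them), PTCH1, the 4 genes nearest in pattern to each member, and named markers; 1 list gene is counted but not reported here.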

Additional observations from a re-analysis of the deposited data

How the results depend on the processing

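The 67 probe sets past limma's threshold became 34 with arrays centred on their medians, 1014 with an intensity trend, 147 by a plain equal-variance fit, 558 among probe sets above the median signal only, 295 when the pseudocount was 64 and 0 when it was 1 (5009 at an unadjusted p under 0.05). They became 0 under the replicate block (4746 unadjusted), 0 by the q-value of the authors' deposited table (2411) and 0 without any 1 of the 6 arrays (4411 to 5180). The 1 called probe set among those of TGFBR3, TGFBR1 and CDKN2B became 4 with the trend, 2 by the plain fit, 2 above the median signal, 2 at the pseudocount of 64, and 0 at that of 1, under the replicate block, by the authors' q-value and without any 1 array. The cause of these changes was not tested. Some of these fits also hold fewer samples or fewer probe sets. The replicate numbers are shared by both groups, but same-numbered arrays did not deviate together (r = 0.021, 0.012 and -0.041). These correlations cannot show whether same-numbered cultures were handled together, and no batch is recorded. The log2 difference of CDKN2B was 0.35, and 0.43 with centred arrays, which exceeds its small replicate SD; the cause is the centring itself, which moved all probe sets alike. All other log2 differences of the 4 probe sets moved by less than the replicate SD.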
